A study of Mus musculus with 12 samples.

Results

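The MYC, MAX and MXD network is a family of basic helix-loop-helix leucine zipper transcription factors, most of which bind DNA together with MAX. MYC with MAX activates genes of growth, ribosome production and metabolism, whereas the MXD proteins, MXI1 and MNT bind MAX in place of MYC and recruit SIN3 corepressors with histone deacetylases. MGA ties MAX to a Polycomb-type repressor complex, and MLX is the partner of the glucose-responsive Mondo factors and of some MXD proteins. In macrophages MYC is known as an early gene of activation and proliferation. The 9 genes described are Myc, Max, Mxi1, Mxd1, Mxd3, Mxd4, Mnt, Mga and Mlx, chosen by name, out of 19938 genes measured. Each had 1 probe set whose only gene symbol was its own, and none was removed by a filter. The members and the gene lists used below were chosen with earlier results of these data known.

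Transcripts were measured on 12 Affymetrix arrays in primary microglia, the macrophages resident in the brain, of C57BL/6J pups at postnatal day 7, selected with beads against CD11b and grown for 3 days in serum-containing medium. Cells of 3 litters received each of 4 treatments for 6 h (n = 3 arrays per group). The groups were oligomers of the amyloid peptide Aβ42 at 10 µM together with AE1-329 at 100 nM, a compound that activates the cAMP-coupled prostaglandin receptor EP4, then Aβ42 at 10 µM with the ethanol vehicle (0.001%), then AE1-329 at 100 nM with the DMSO vehicle (0.4%), and lastly both vehicles. All values are log2 expression values, on which 1 unit is a 2-fold difference, and a gene passed a comparison at a limma p, adjusted over all 19938 genes, under 0.05. Changes are given ± the standard error of that fit.

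Array medians lay between 6.97 and 7.05, and the median SD between replicates was 0.063 to 0.066 in the 3 treated groups and 0.109 in vehicle. All 9 measured microglia markers lay above the median gene level of 7.41 in every group. Their mean per array was 10.55 to 10.59 with both agents, 10.73 to 10.78 with Aβ42 alone, 10.71 to 10.77 with AE1-329 alone and 10.85 to 10.90 in vehicle. Single markers went both ways. With both agents against vehicle 0 of the 9 passed as higher and 3 as lower, where 9.27% of all genes were higher and 11.9% lower. With Aβ42 alone 2 were higher and 4 lower, where 10.7% of all genes were higher and 14.8% lower. Cx3cr1 averaged 10.59 with both agents and 11.84 in vehicle, and P2ry12 averaged 7.53 with both agents and 9.18 in vehicle. Csf1r averaged 12.70 with both agents and 12.58 in vehicle, a difference that did not pass. Aif1 averaged 8.60 with Aβ42 alone and 8.14 in vehicle. The part of these shifts in the results was not tested. Neutrophil marker means stayed between 6.00 and 6.18 and neuron marker means between 6.52 and 6.77, with 0 of 7 and 1 of 8 markers above the median gene level in each group. The corresponding array means were 6.95 to 7.22 for astrocyte markers, 7.20 to 7.46 for oligodendrocyte lineage markers, 7.07 to 7.48 for endothelial and mural markers and 5.42 to 5.68 for lymphocyte markers. Depending on the group, 2 to 4 of 8 astrocyte and 2 to 4 of 8 oligodendrocyte lineage markers lay above the median gene level. The same held for 3 to 4 of 9 endothelial and mural markers and 0 to 1 of 5 lymphocyte markers.

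MAX-containing dimers bind the E-box, whose letters CACGTG read alike on both strands. It was searched in the 250 bases before each start site with a promoter window (GRCm38.p6), which gave 10 windows for 8 of the members. These start sites need not be the outermost ends of the genes in RefSeq. The missing member was Myc, which was therefore not searched for any of the letters below. The E-box stood in 3 of these, against 6.02% of all 32851 windows of that length. The matches are shown because they lie in front of start sites of members of the network itself, with the E-box in capitals and the strand of the gene.
Mxd4: ggctgggccacCACGTGctgttgctaag
Mnt: cccacccaagcCACGTGtgcgcgcgcgg
Mlx: gtgggttggatCACGTGactgagcctcg
The Mxd4 window is chr5:34187913-34187940 on the minus strand, with the E-box at -219 to -214 from the start. The Mnt window is chr11:74830790-74830817 on the plus strand (-123 to -118), and the Mlx window is chr11:101087239-101087266 on the plus strand (-40 to -35). The Mnt window spans the RefSeq start of the gene at 74830806. The Mlx window lies inside its RefSeq gene, which runs from 101086707 to 101092207. The full cAMP response element TGACGTCA, which CREB binds, was in 0 of the 10 windows and in 1.55% of all. Its half-site TGACG, which the full element contains, was searched on both strands and occurred in the Mga window only, against 17.8% of all. The windows of the 3 Mxi1 starts and those of Max, Mxd1 and Mxd3 held none of these letters.

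Myc and Mxi1 had the widest span of group means in the network, and ran in opposite directions. Myc stood at 9.41, 9.20 and 9.26 in the arrays of litters 1, 2 and 3 with both agents, at 9.87, 9.82 and 9.90 with Aβ42 alone, at 8.29, 8.25 and 8.19 with AE1-329 alone, and at 9.07, 9.16 and 9.47 in vehicle. All Aβ42-alone arrays were above, and all AE1-329-alone arrays below, every other array, while the arrays with both agents lay within the vehicle range. Mxi1, the MAX partner also known as MAD2, stood at 10.62, 10.60 and 10.67 with both agents, at 8.63, 8.63 and 8.71 with Aβ42 alone, at 11.10, 11.17 and 11.23 with AE1-329 alone, and at 9.65, 9.82 and 9.76 in vehicle. Its 4 groups did not overlap anywhere and ran from AE1-329 alone, the highest, through both agents and vehicle to Aβ42 alone. In such bulk cultures fewer cells of a type and less RNA per cell cannot be told apart.

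**Figure D1:**
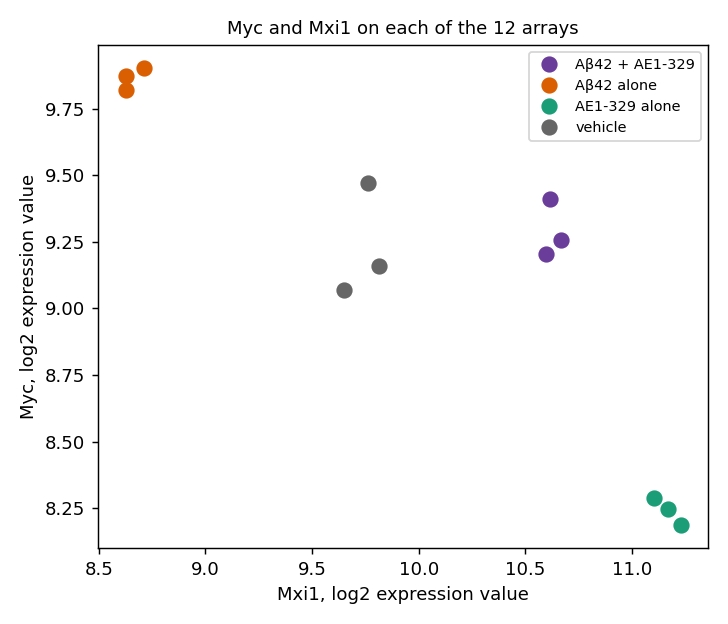
Log2 expression of Myc (vertical axis) against Mxi1 (horizontal axis), 1 point per array, coloured by treatment (3 arrays per group). Aβ42 alone lies at high Myc and low Mxi1 (8.63 to 8.71), AE1-329 alone at low Myc (8.19 to 8.29) and high Mxi1, and both agents share the Myc levels of vehicle at higher Mxi1.

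**Figure D2:**
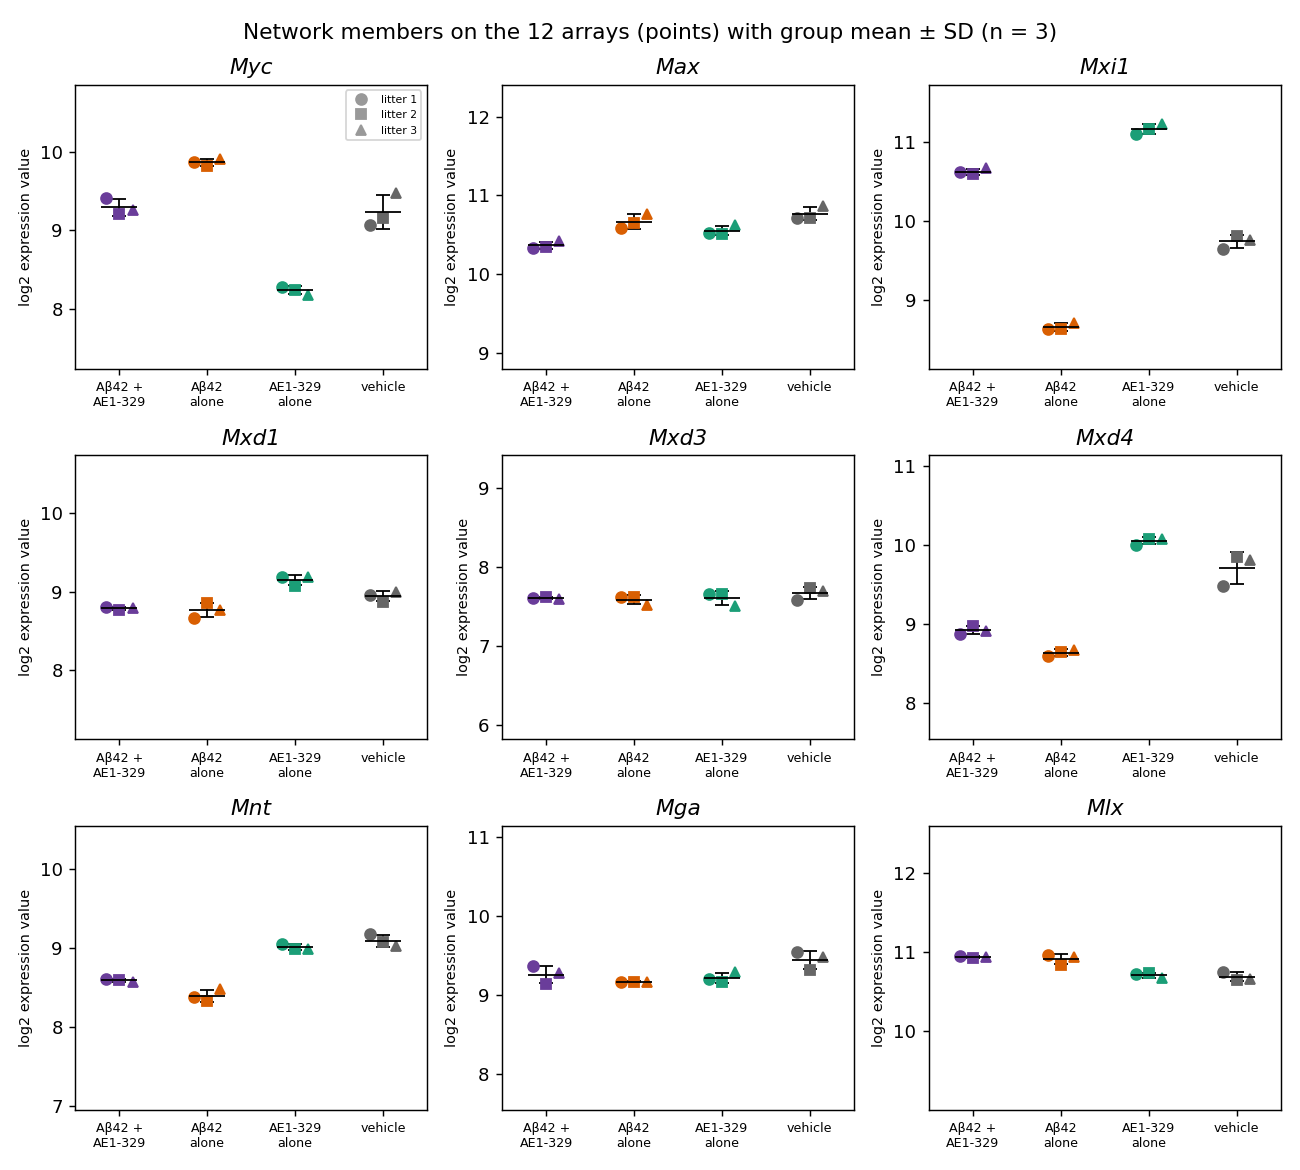
Log2 expression values of the 9 members in each treatment, with marker shape for the litter and bars for the group mean ± SD (n = 3). Every panel spans the same number of log2 units, so that the spread of Mxi1, Mxd4 and Myc can be compared with the near-flat Mxd3.

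The first comparison asked what Aβ42 alone did to the network. Myc rose by 0.63 ± 0.09 (1.55-fold, adjusted p = 0.000149), and the difference was 0.80, 0.66 and 0.43 in the 3 litters. The antagonists Mxi1, Mxd4 and Mnt went the other way. Mxi1 fell by 1.09 ± 0.06 (2.13-fold lower, adjusted p = 1.44e-08). Mxd4, a MAD repressor linked to quiescent and differentiated cells, stood at 8.59, 8.65 and 8.67 with Aβ42 alone, against 9.48, 9.85 and 9.81 in vehicle. It fell by 1.08 ± 0.08 (2.11-fold lower, adjusted p = 4.67e-07). Mnt, the broadly expressed MAX-binding repressor that opposes MYC in resting cells, stood at 8.37, 8.33 and 8.48 with Aβ42 alone, against 9.17, 9.07 and 9.03 in vehicle. It fell by 0.70 ± 0.06 (1.62-fold lower, adjusted p = 8.06e-07). Neither gene had overlapping groups. The 3 repressor genes were lower in 3 of 3 litters, and their calls held under all 19 alternatives. Mga stood at 9.17, 9.17 and 9.16 with Aβ42 alone, against 9.54, 9.32 and 9.48 in vehicle, without overlap. It fell by 0.28 ± 0.07 (adjusted p = 0.00955), while Mlx rose by 0.23 ± 0.05 (adjusted p = 0.0057).

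Mxd1, the founding MAD gene, passed narrowly with Aβ42 alone (-0.18 ± 0.06, adjusted p = 0.0476). It did not pass with the litter as a block (adjusted p = 0.0501) nor under 14 of the other alternatives, at adjusted p up to 0.207, among them without replicates 1 or 3 of any group and without replicate 2 of either AE1-329 group. Max (-0.10 ± 0.06, adjusted p = 0.313) and Mxd3, a MAD gene of cells in S phase (-0.09 ± 0.06, adjusted p = 0.345), did not pass. Of the 9 members 2 were higher, 5 lower and 2 did not pass, where 25.6% of all genes passed, 10.7% higher and 14.8% lower. The median change was -0.18 over the members and 0.02 over all genes. Groups did not overlap for 7 members and for 35.0% of all genes.

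**Figure D3:**
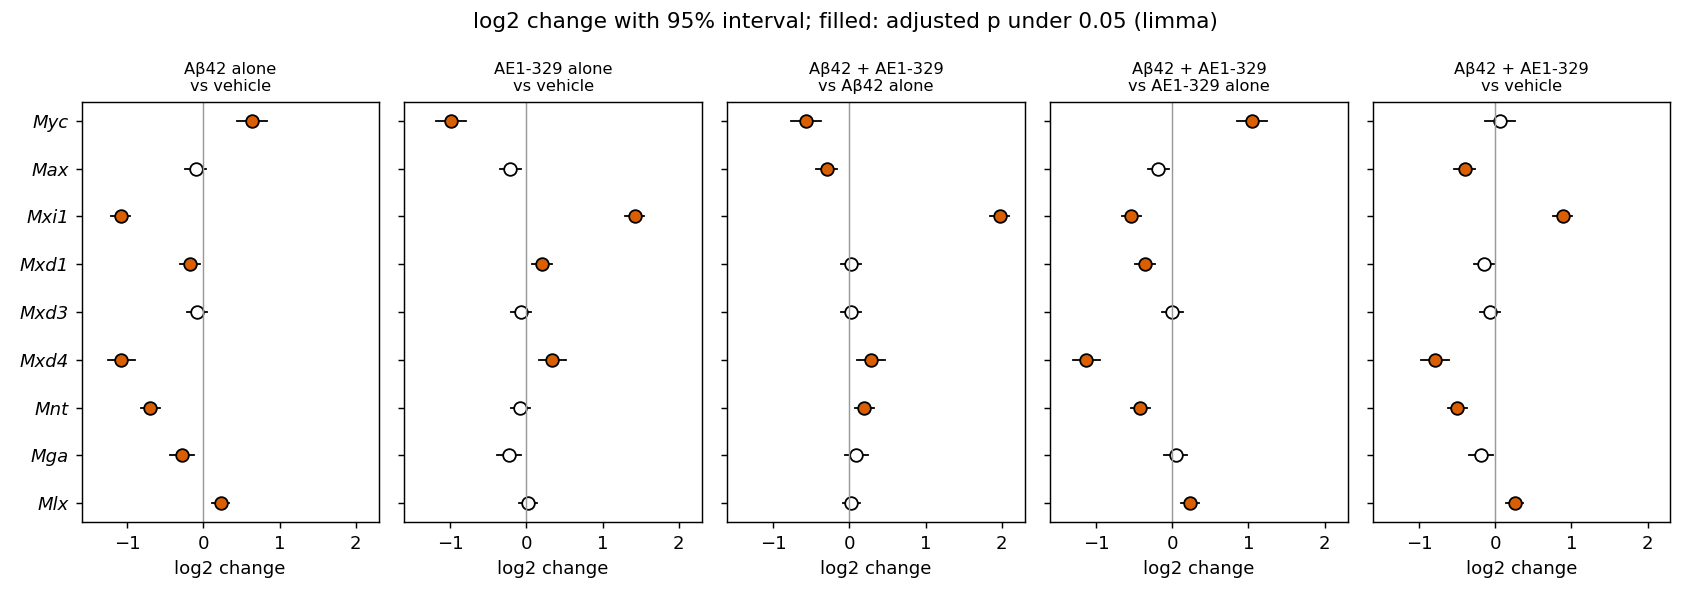
Log2 change of each member in the 5 comparisons, with its 95% interval from the limma fit, and filled points where the adjusted p was under 0.05. Mxi1 changed by -1.09 with Aβ42 alone and by 1.97 when AE1-329 was added to Aβ42, and Myc changed the opposite way in both. Both comparisons use the same Aβ42-alone arrays, so the changes are not independent.

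The second comparison asked what the EP4 agonist did without Aβ42. Myc fell by 0.99 ± 0.09 (1.99-fold lower, adjusted p = 1.42e-05), by 0.78, 0.91 and 1.29 in the 3 litters. Mxi1 rose by 1.42 ± 0.06 (2.68-fold, adjusted p = 2.37e-08), between 1.35 and 1.47 within litters. Both calls held under all 19 alternatives. Mxd4 stood at 10.00, 10.09 and 10.08 with AE1-329 alone and at 9.48, 9.85 and 9.81 in vehicle. It rose by 0.34 ± 0.08 (adjusted p = 0.0186). The change was 0.22 without vehicle replicate 1 (adjusted p = 0.0158), the lowest vehicle array, and the call ended without replicates 2 or 3 of AE1-329 alone (adjusted p = 0.0718 and 0.0664) and with only the 6 arrays compared (0.116).

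Mxd1 rose by 0.21 ± 0.06 with AE1-329 alone (adjusted p = 0.0455), and this call ended under 11 of 19 alternatives (adjusted p up to 0.154), among them without any 1 array of the combined treatment or of AE1-329 alone, without vehicle replicates 1 or 2 and without Aβ42-alone replicate 3. Max, the shared partner, stood at 10.52, 10.52 and 10.63 with AE1-329 alone and at 10.72, 10.72 and 10.87 in vehicle. The groups of Max did not overlap, and it missed the threshold (-0.21 ± 0.06, adjusted p = 0.0531) but passed with the litter as a block (0.0116). Mga was similar (-0.23 ± 0.07, adjusted p = 0.0588, and 0.0240 with the block). Mnt (-0.08 ± 0.06, 95% interval -0.20 to 0.04), Mlx (0.02 ± 0.05) and Mxd3 (-0.07 ± 0.06) did not pass. Of the 9 members 3 were higher and 1 lower, where 10.2% of all genes passed, 4.71% higher and 5.45% lower, and 6 members against 22.9% of all genes had groups that did not overlap. The member median was -0.07, beside -0.01 over all genes. Both single-agent comparisons share the 3 vehicle arrays, so their changes are not independent.

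The third comparison asked what AE1-329 changed on top of Aβ42. Mxi1 was 10.60 or more in every array with both agents and at most 8.71 with Aβ42 alone, a rise of 1.97 ± 0.06 (3.92-fold, adjusted p = 1.65e-09) that lay between 1.96 and 1.99 in the 3 litters. Myc fell by 0.57 ± 0.09 (1.49-fold lower, adjusted p = 0.00106), and it was lower in 3 of 3 litters, by 0.46 to 0.65. Max stood at 10.34, 10.35 and 10.42 with both agents, against 10.58, 10.65 and 10.77 with Aβ42 alone. It fell by 0.30 ± 0.06 (adjusted p = 0.00806), without overlap, and by 0.25 to 0.35 within litters.

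Mxd4 was at 8.88, 8.98 and 8.91 with both agents, against 8.59, 8.65 and 8.67 with Aβ42 alone, and rose by 0.29 ± 0.08 (adjusted p = 0.0437). Mnt was at 8.61, 8.59 and 8.57 with both agents, against 8.37, 8.33 and 8.48 with Aβ42 alone, and rose by 0.20 ± 0.06 (adjusted p = 0.0414). Groups did not overlap for either gene, but both calls sat near the threshold. The Mxd4 call ended without any 1 array of the combined treatment, of Aβ42 alone or of AE1-329 alone (adjusted p 0.0586 to 0.150), and the Mnt call without any 1 of these except replicate 3 of Aβ42 alone (0.0544 to 0.167). Mxd1 (0.03 ± 0.06), Mxd3 (0.02 ± 0.06), Mga (0.09 ± 0.07) and Mlx (0.03 ± 0.05) did not pass. In all 3 members were higher and 2 lower, where 11.0% of all genes passed (5.99% higher, 5.04% lower). Groups did not overlap for 5 members and for 32.0% of all genes. The member median was 0.03 and that of all genes -0.02.

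The fourth comparison set both agents against AE1-329 alone, the Aβ42 response of agonist-treated cells. Myc rose by 1.05 ± 0.09 (2.07-fold, adjusted p = 1.62e-06), between 0.96 and 1.13 within litters. Mxd4 fell by 1.13 ± 0.08 (2.19-fold lower, adjusted p = 3.05e-07), by 1.10 to 1.16 within litters. Mxi1 fell by 0.54 ± 0.06 (1.45-fold lower, adjusted p = 1.35e-05). The 3 genes kept their calls under all 19 alternatives. Mnt fell by 0.42 ± 0.06 (adjusted p = 0.000102) and Mxd1 by 0.36 ± 0.06 (adjusted p = 0.00063).

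Mxd1 stood at 8.81, 8.77 and 8.79 with both agents, against 9.18, 9.07 and 9.18 with AE1-329 alone, its highest group. Mlx stood at 10.95, 10.93 and 10.94 with both agents, against 10.73, 10.73 and 10.67 with AE1-329 alone, and rose by 0.23 ± 0.05 (adjusted p = 0.00593). The groups of both genes were apart. Max missed the threshold (-0.19 ± 0.06, adjusted p = 0.0556) and passed with the litter as a block (0.0122), while Mga (0.04 ± 0.07) and Mxd3 (0.00 ± 0.06) did not pass. Of the 9 members 2 were higher and 4 lower, where 22.0% of all genes passed (9.77% higher, 12.2% lower), and groups did not overlap for 7 members and for 40.1% of all genes. The member median was -0.19, beside 0.01 over all genes.

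Set against vehicle, the combined treatment left Myc at a change of 0.06 ± 0.09 (95% interval -0.14 to 0.25, adjusted p = 0.774), with values of 9.41, 9.20 and 9.26 against 9.07, 9.16 and 9.47 in vehicle. The sign differed between litters, and it turned without replicate 1 of either group (-0.0028 without the combined array, -0.02 without the vehicle array). Mxi1 rose by 0.88 ± 0.06 (1.85-fold, adjusted p = 1.06e-07). Mxd4 fell by 0.79 ± 0.08 (1.73-fold lower, adjusted p = 9.35e-06), Mnt fell by 0.50 ± 0.06 (adjusted p = 2.01e-05) and Max fell by 0.40 ± 0.06 (1.32-fold lower, adjusted p = 0.000418). Mlx rose by 0.25 ± 0.05 (adjusted p = 0.00314). Mxd1 (-0.15 ± 0.06, adjusted p = 0.106) and Mxd3 (-0.07 ± 0.06) did not pass, nor did Mga (-0.19 ± 0.07, adjusted p = 0.0858), which passed with the litter as a block (0.0385). Thus 2 members were higher and 3 lower, where 21.2% of all genes passed (9.27% higher, 11.9% lower), and groups did not overlap for 6 members and for 30.3% of all genes. The member median was -0.15 and that of all genes -0.01.

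The interaction asked whether the effect of AE1-329 on a gene differed with and without Aβ42. Mxi1 was the 1 member that passed, where 1.95% of all genes passed (1.03% with a positive and 0.918% with a negative term). AE1-329 raised Mxi1 by 1.97 with Aβ42 and by 1.42 without it, an interaction of 0.55 ± 0.08 (adjusted p = 0.00322). It was positive in 3 of 3 litters, at 0.54, 0.62 and 0.49, and held under all 18 alternatives. For Myc the agonist effect was -0.57 with Aβ42 and -0.99 without it, and the interaction did not pass (0.42 ± 0.13, 95% interval 0.14 to 0.70, adjusted p = 0.159). The Myc term was positive in 3 of 3 litters, from 0.30 to 0.64. Mga (0.32 ± 0.10, adjusted p = 0.164) and Mnt (0.28 ± 0.08, adjusted p = 0.124) were also positive in 3 of 3 litters and did not pass either. The remaining 5 members had terms between -0.18 and 0.09, with adjusted p of at least 0.490, and those of Max and Mxd1 were negative in 3 of 3 litters.

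The members differed in the order of their groups. Mxd4 ran from AE1-329 alone (10.06 ± 0.05, SD, n = 3) through vehicle (9.72 ± 0.20) and both agents (8.92 ± 0.05) to Aβ42 alone (8.64 ± 0.04). Mnt had vehicle (9.09 ± 0.07) and AE1-329 alone (9.01 ± 0.04) on top, which overlapped and did not differ by the test, then both agents (8.59 ± 0.02) and Aβ42 alone (8.39 ± 0.08). Mlx was higher in the pair of Aβ42 groups (10.94 ± 0.01 with both agents and 10.91 ± 0.07 with Aβ42 alone) than in the pair without it (10.71 ± 0.03 with AE1-329 alone and 10.69 ± 0.06 in vehicle), and neither pair parted inside. Max was lowest with both agents (10.37 ± 0.04) and highest in vehicle (10.77 ± 0.09), with Aβ42 alone (10.67 ± 0.09) and AE1-329 alone (10.55 ± 0.06) between them, and the Aβ42-alone arrays overlapped both vehicle and AE1-329 alone. Mxd1 ran from AE1-329 alone (9.15 ± 0.06) through vehicle (8.94 ± 0.06) to both agents (8.79 ± 0.02) and Aβ42 alone (8.76 ± 0.09), which overlapped. Mga was highest in vehicle (9.44 ± 0.12), and its other groups, from 9.16 to 9.26, were not apart. The group means of Mxd3 all lay between 7.58 and 7.67, and no comparison of it passed.

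Genes whose levels ran most like a member's over the 12 arrays were listed by Pearson's r, as a description of 4 treatment clusters rather than of 12 independent points. Mxi1 ran most like Pitpnc1, a phosphatidylinositol transfer protein gene (r = 0.997), Hbp1, an HMG-box repressor gene (0.993), and Sipa1l1 (0.988). Myc ran most like Kri1, a ribosome assembly factor gene (0.994), Pprc1, a coactivator gene of the PGC-1 family (0.987), and Slc24a5 (0.982). For Mxd4 the closest were Sash3 (0.993), Tnfaip8l2 (0.992) and Sort1 (0.992), and for Mnt they were Cuta (0.992), Osbpl11 (0.989) and Snrk (0.987). The highest r of the other members was 0.977 for Mlx (Ccr9), 0.976 for Mxd1 (Mllt3), 0.961 for Max (Arrb1), 0.919 for Mga (Sfmbt1) and 0.901 for Mxd3 (Krt19).

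Of the wider network, Mlxip, which encodes the MLX partner MondoA, fell with Aβ42 alone by 0.31 ± 0.05 (adjusted p = 0.000862), with both agents against AE1-329 alone by 0.31 ± 0.05 (adjusted p = 0.000861) and with both agents against vehicle by 0.35 ± 0.05. Mycl, a MYC paralogue, rose by 0.29 ± 0.09 with Aβ42 alone (adjusted p = 0.0355), a call that ended without replicates 1 or 3 of Aβ42 alone or replicates 1 or 2 of vehicle (0.0614 to 0.164). Mycn and Mlxipl, the gene of ChREBP, passed in none of the 6 limma tests, and the unadjusted p was under 0.05 in 1 of them for Mycn and in 2 for Mlxipl. Of the MLX and Mondo targets, Arrdc4, an alpha-arrestin gene, stood at 10.61 ± 0.06 with both agents, 9.94 ± 0.02 with Aβ42 alone, 9.21 ± 0.09 with AE1-329 alone and 8.85 ± 0.06 in vehicle. It rose in all 5 comparisons, by 0.36 ± 0.06 with AE1-329 alone, 1.09 ± 0.06 with Aβ42 alone and 1.76 ± 0.06 with both agents against vehicle. Txnip, an inhibitor of thioredoxin and glucose uptake, changed by 0.02 ± 0.07 and 0.14 ± 0.07 with Aβ42 alone and AE1-329 alone, which did not pass, and fell by 0.37 ± 0.07 with both agents against AE1-329 alone (adjusted p = 0.00205). With both agents it was also lower than with Aβ42 alone (-0.26, adjusted p = 0.0382) and than in vehicle (-0.23, adjusted p = 0.0362). Those calls ended under 8 and 9 of 19 alternatives.

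Genes that MYC activates, among them many for ribosome assembly, were followed through a list of 30, of which 29 were measured. With Aβ42 alone 14 of the 29 rose and 1, Cdk4, fell (-0.22 ± 0.05), where 10.7% of all genes were higher and 14.8% lower, while 2 fell with the litter as a block and 3 without vehicle replicate 2. The median change was 0.19, beside 0.02 over all genes. Rrs1 rose by 0.92 ± 0.10, Nop58 by 0.71 ± 0.09, Gnl3, the gene of nucleostemin, by 0.65 ± 0.07, and Nop56 by 0.59 ± 0.07 (adjusted p 1.17e-05 to 4.61e-05). With AE1-329 alone 19 of the 29 fell and 1 rose, where 5.45% of all genes were lower and 4.71% higher, with a median of -0.37, beside -0.01 over all genes. Gnl3 fell by 0.81 ± 0.07, Nop58 by 0.79 ± 0.09, Nolc1 by 0.68 ± 0.06 and the RNA polymerase I subunit gene Polr1b by 0.64 ± 0.06 (adjusted p 6.32e-06 to 8.43e-05).

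Added to Aβ42, the agonist lowered 16 of the 29 targets and raised 1, where 5.04% of all genes were lower and 5.99% higher. The median was -0.28, beside -0.02 over all genes, and 2 rose without vehicle replicate 1 or with only the arrays compared. Nop58 fell by 1.03 ± 0.09, Gnl3 by 0.97 ± 0.07, Nop16 by 0.73 ± 0.06 and Polr1b by 0.73 ± 0.06 (adjusted p 1.86e-06 to 9.94e-06). Between both agents and AE1-329 alone 9 rose, and 0 fell by limma (1, Cdk4, was lower at an unadjusted p under 0.05, and 1 fell with the litter as a block). Of all genes 9.77% were higher and 12.2% lower. The median was 0.13, beside 0.01 over all genes, and 14 rose without vehicle replicate 1, an alternative chosen after seeing the data, like all for this list. Between both agents and vehicle 2 rose and 13 fell (median -0.23, beside -0.01), where 9.27% of all genes were higher and 11.9% lower, led by Dkc1, the gene of the pseudouridine synthase dyskerin, which fell by 1.10 ± 0.14. Gnl3 stood at 8.25 ± 0.10 with both agents, 9.22 ± 0.01 with Aβ42 alone, 7.76 ± 0.03 with AE1-329 alone and 8.57 ± 0.13 in vehicle (SD, n = 3 each).

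The target that rose in all 5 comparisons was Odc1, ornithine decarboxylase of polyamine synthesis. Its levels were 11.21 ± 0.19 with both agents, 9.67 ± 0.20 with Aβ42 alone, 9.52 ± 0.28 with AE1-329 alone and 8.37 ± 0.40 in vehicle (SD, n = 3 each). It rose by 1.15 ± 0.19 with AE1-329 alone (adjusted p = 0.00146), by 1.30 ± 0.19 with Aβ42 alone (adjusted p = 0.000152) and by 2.84 ± 0.19 with both agents against vehicle (adjusted p = 1.08e-07). Rrs1 was the second target higher with both agents against vehicle (0.33 ± 0.10, adjusted p = 0.0309), a call that ended without vehicle replicates 1 or 2 and without combined replicates 1 or 3 (0.0572 to 0.142).

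**Figure D4:**
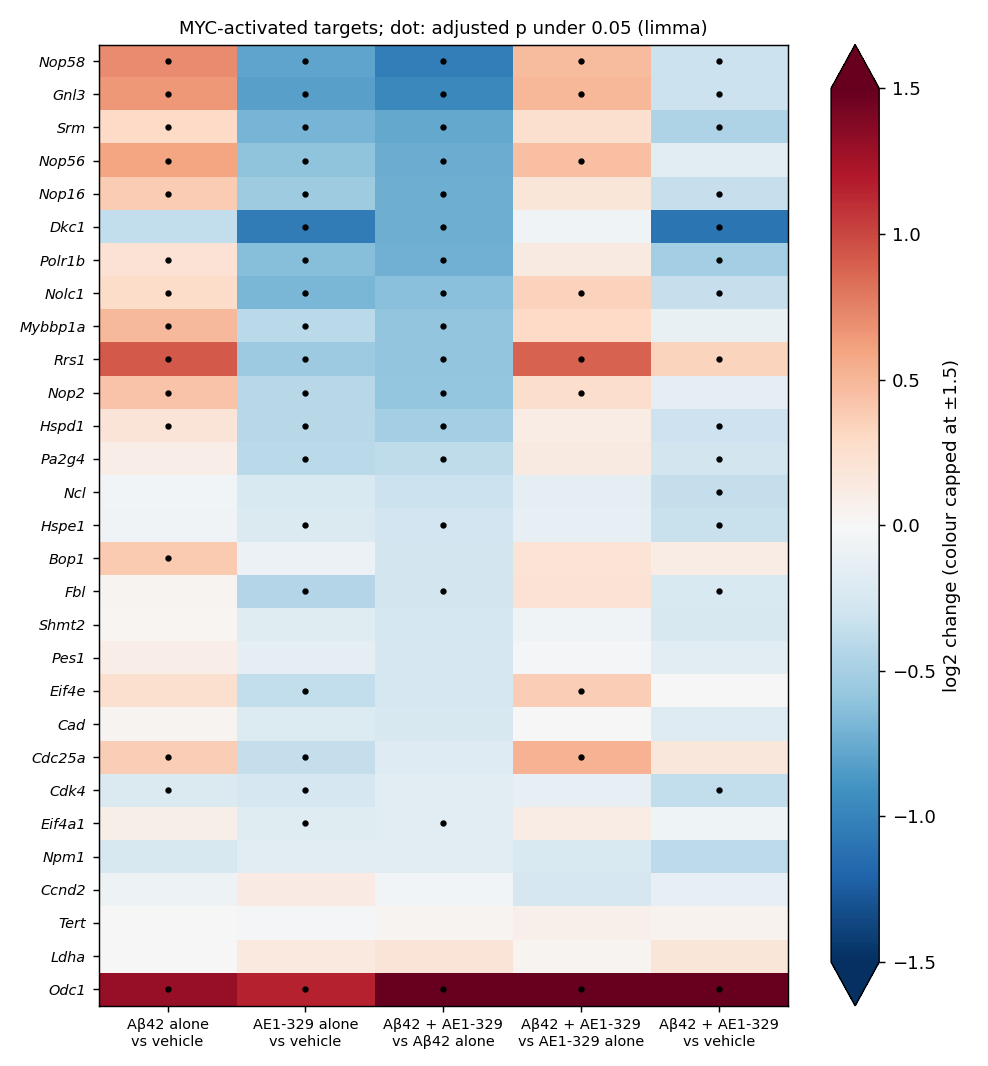
Log2 change of the 29 measured MYC-activated targets (rows) in the 5 comparisons (columns), with a dot where the adjusted p was under 0.05. Red marks higher and blue lower levels in the first-named treatment, and most rows turn from red with Aβ42 alone (14 called higher) to blue with AE1-329 alone (19 called lower), with Odc1 red throughout.

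The E-box was in 6 of the 27 windows found for 24 of these 30 targets (22.2%, against 6.02% of all windows). Shown are those of the 3 targets with a single match, written as above.
Nop2: tgtccctggatCACGTGtgttccggtgc
Hspd1: gccggctgggaCACGTGaaaaggccgcg
Eif4a1: gatcgcctccgCACGTGtaaaggtgctg
The Nop2 window, before a start site of the gene of a ribosomal RNA methyltransferase, is chr6:125131812-125131839 on the plus strand. The Hspd1 window, before a start site of a mitochondrial chaperonin gene, is chr1:55088307-55088334 on the minus strand. The window of the translation factor gene Eif4a1 is chr11:69672596-69672623 on the minus strand. When AE1-329 was added to Aβ42, Nop2 fell by 0.58 ± 0.06 (adjusted p = 3.15e-05) and Hspd1 fell by 0.51 ± 0.05 (adjusted p = 5.61e-05). Eif4a1 fell by 0.15 ± 0.05 (adjusted p = 0.0470), a call that ended under 11 of 19 alternatives, among them the litter block (0.0526). Of the other targets with an E-box, which had several matches each, none passed here, with Ldha at 0.19 ± 0.07 (adjusted p = 0.120), Cdk4 at -0.16 ± 0.05 (0.0733) and Eif4e at -0.25 ± 0.09 (0.127). All of these genes were named for their windows after the values were seen.

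Of 8 measured genes that MYC represses 1 rose and 2 fell with Aβ42 alone, a share near the 25.6% of all genes that passed. Cdkn2b, the gene of the cell cycle inhibitor p15, rose by 1.02 ± 0.07 (adjusted p = 1.21e-07), Cdkn1b, the gene of p27, fell by 0.80 ± 0.07 (adjusted p = 2.39e-06), and the stress gene Gadd45g fell by 0.61 ± 0.09. With AE1-329 alone Cdkn1b rose by 0.34 ± 0.07 (adjusted p = 0.0096), and it was the 1 call of the list (0.0797 with only the 6 arrays compared), where 10.2% of all genes passed. Added to Aβ42, the agonist raised Cdkn1b by 0.65 ± 0.07 (adjusted p = 7.05e-05) and Gadd45a by 0.70 ± 0.08 (adjusted p = 0.00011). Thus 2 of the 8 rose and 0 fell, where 5.99% of all genes were higher and 5.04% lower. Both agents against AE1-329 alone gave 2 rises and 2 falls (9.77% and 12.2% of all genes). Against vehicle there were also 2 rises and 2 falls (9.27% and 11.9%). Cdkn2b rose in these 2 comparisons, by 1.06 and 1.12. Cdkn1b stood at 9.70 ± 0.06 with both agents, 9.05 ± 0.03 with Aβ42 alone, 10.19 ± 0.04 with AE1-329 alone and 9.85 ± 0.16 in vehicle, so that its lowest and highest groups were those of Mxi1 and Mxd4.

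Among the 14 SIN3 corepressor subunits, which MXD proteins and MXI1 recruit, 3 rose and 4 fell with Aβ42 alone, against 25.6% of all genes that passed. Sap30 rose by 1.25 ± 0.10 (adjusted p = 7.80e-07), and Arid4a, Ing2 and the scaffold gene Sin3a fell by 0.63 ± 0.09, 0.38 ± 0.07 and 0.29 ± 0.06. The other rises were those of Hdac1 (0.39), which ended under 1 of 19 alternatives, and Brms1 (0.29), which ended under 10. With AE1-329 alone of all 14, 3 passed (10.2% of all genes), as Sin3a rose by 0.31 ± 0.06 and Ing1 by 0.32 ± 0.06, and the histone chaperone gene Rbbp7 fell by 0.32 ± 0.06. Added to Aβ42, AE1-329 raised Sin3a by 0.56 ± 0.06 (adjusted p = 7.31e-05), Ing2 by 0.36 ± 0.07 and Ing1 by 0.32 ± 0.06, and lowered Sap30 by 0.81 ± 0.10 (adjusted p = 0.000175). Of all genes 11.0% passed there. Sin3a stood at 9.11 ± 0.02 with both agents, 8.55 ± 0.08 with Aβ42 alone, 9.15 ± 0.09 with AE1-329 alone and 8.84 ± 0.07 in vehicle. Between both agents and AE1-329 alone Sap30 rose by 0.73 ± 0.10 and Arid4a fell by 0.48 ± 0.09, the only calls of the 14, where 22.0% of all genes passed. Between both agents and vehicle 5 rose and 2 fell, where 9.27% of all genes were higher and 11.9% lower.

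Of the 11 measured MYC cofactors 4 rose and 1 fell with Aβ42 alone, where 25.6% of all genes passed. Of the 4 rises that of Wdr5 held under all 19 alternatives, while those of Ruvbl2, Ccnt1 and Actl6a ended under 2, 4 and 12 of them. Wdr5, which helps recruit MYC to chromatin, rose by 0.42 ± 0.09 (adjusted p = 0.00247) and the acetyltransferase gene Kat2a fell by 0.22 ± 0.05 (adjusted p = 0.00274). In the other comparisons of groups 2 to 4 of the 11 passed, beside 10.2% to 22.0% of all genes. Of 10 genes for MYC protein turnover 2 rose and 3 fell with Aβ42 alone, where 10.7% of all genes were higher and 14.8% lower, and the rise of Huwe1 (0.15) ended under 8 of 19 alternatives. Skp2, a ubiquitin ligase subunit that targets MYC and p27, fell by 0.50 ± 0.06 (adjusted p = 4.36e-05), and by 0.38 ± 0.06 with AE1-329 alone (adjusted p = 0.0015). The nucleolar deubiquitinase gene Usp36 rose by 0.29 ± 0.06 with Aβ42 alone and fell by 0.27 ± 0.06 when AE1-329 was added (adjusted p = 0.00236 and 0.00882). Of the 9 partners of MGA in its Polycomb-type complex 1 fell with Aβ42 alone, namely Cbx3, a heterochromatin protein gene (-0.73 ± 0.11, adjusted p = 0.000312), 2 fell with AE1-329 alone, and 0 passed by limma when AE1-329 was added to Aβ42 (2 had an unadjusted p under 0.05), where 25.6%, 10.2% and 11.0% of all genes passed. The calls with AE1-329 alone were those of E2f6 (-0.58), which ended under 12 of 19 alternatives and was -0.30 without vehicle replicate 1, and Tfdp1 (-0.22), which ended under 11 of 19. Between both agents and vehicle 4 of the 9 fell, where 11.9% of all genes were lower. The fall of Cbx3 (-0.56) held under all 19 alternatives, while those of E2f6 (-0.55), Tfdp1 (-0.23) and Yaf2 (-0.18) ended under 5, 4 and 11 of them.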

How the data were processed

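Total RNA of 12 microglia cultures was hybridised to Affymetrix Mouse Gene ST arrays. The deposited values are on the log2 scale; per the submitters' processing notes RMA and Partek 6.5 were used, with no role given. Values ran from 2.79 to 13.95. Of 35556 probe sets, 21789 carried 1 gene symbol; for the 999 genes with several probe sets, the one with the highest mean level was used, giving 19938 genes. No low-value filter was applied.

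Group means of all 12 arrays were fitted with limma 3.58.1 (R 4.3.3; lmFit, eBayes; 8 residual and 4.54 prior degrees of freedom), two-sided, with Benjamini-Hochberg adjustment. The code was tested on simulated data. The members, gene lists and tests were chosen with earlier results of these data known. Besides all members, the text names up to 4 genes of each list with the smallest p per comparison and the 3 genes with the highest r to each member. Further list genes were named after the values were seen, for an E-box, for the direction of their change or for calls that ended under alternatives. The vehicle arrays are shared by 3 comparisons, and 3 share the arrays with both agents, so they are not independent.

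The replicate number was taken as the litter from the study's design text, as the array titles carry a replicate number only. The main fit held no litter term and so did not use this pairing. After the group means were removed, 18 same-numbered pairs of arrays had r between 0.0044 and 0.54 (mean 0.33) and 36 other pairs a mean of -0.16. The litter as a block was an alternative, beside each left-out array, only the arrays compared, repeated quantile normalisation, a trended robust prior, a level filter and other probe set rules. The number of arrays limits the precision. Promoter windows were available for annotated start sites only, which did not include every RefSeq gene start.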

Additional observations from a re-analysis of the deposited data

Results flagged for a closer look

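The effect of AE1-329 differed with and without Aβ42 for Mxi1 and for Skp2, by the interaction term of the limma fit. For Mxi1 the term was 0.55 (0.54909) ± 0.08, from a rise of 1.97 with Aβ42 and of 1.42 without it, with adjusted p = 0.00322 and a positive sign in 3 of 3 litters. For Skp2 it was 0.41 (0.407767) ± 0.09 (adjusted p = 0.0315). Skp2 stood at 8.15 ± 0.06 with both agents and 8.12 ± 0.10 with Aβ42 alone, against 8.24 ± 0.06 with AE1-329 alone and 8.61 ± 0.04 in vehicle (SD, n = 3 each). The Skp2 call ended under 8 of 18 alternatives (adjusted p 0.0555 to 0.0985), namely with all probe sets tested and without replicates 1 or 2 of the combined treatment, replicates 2 or 3 of Aβ42 alone or any replicate of AE1-329 alone.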

How the results depend on the processing

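The calls of Myc and Mxi1 in the first 4 comparisons and of Mxi1, Mxd4, Mnt and Mlx with both agents against vehicle held under every alternative run. Genes with an interaction numbered 389, 677 with the litter as a replicate block, and 246 to 557 with 1 array left out (246 and 254 without Aβ42-alone replicates 2 and 3, 254 without AE1-329-alone replicate 2). With AE1-329 alone 2026 genes and 4 members passed, against 970 and 2 with only the arrays compared. Members called there numbered 2 to 4 with 1 array left out, with 2 without AE1-329-alone replicates 2 or 3. When AE1-329 was added to Aβ42, 5 members passed, 3 after repeated quantile normalisation or with all probe sets tested, and 3 to 5 with 1 array left out (3 without any 1 array of the combined treatment or of AE1-329 alone, or without replicates 1 or 2 of Aβ42 alone). The block changed no other member's call than those given for Mxd1, Max and Mga, and among the called genes of the lists it ended the Eif4a1 call alone. Signs turned only for values that did not pass, where 1 array was left out or, for Mxd1, after quantile normalisation. Their ranges with 1 array left out, with the arrays that turned the sign, were as follows. With both agents against AE1-329 alone, Mga ranged from -0.0076 (without combined replicate 1) to 0.101, and Mxd3 from -0.0499 (without AE1-329-alone replicate 3) to 0.0316, with -0.0038 without combined replicate 2. With both agents against vehicle, Myc ranged from -0.0239 (without vehicle replicate 1) to 0.177, with -0.0028 without combined replicate 1. With both agents against Aβ42 alone, Mxd1 ranged from -0.0205 (without Aβ42-alone replicate 1) to 0.0710 and was -0.0052 after quantile normalisation, Mlx ranged from -0.0111 (without Aβ42-alone replicate 2) to 0.0520, and Mxd3 from -0.0094 (without Aβ42-alone replicate 3) to 0.0419. In the interaction Mlx ranged from -0.0345 (without Aβ42-alone replicate 2) to 0.0287, with negative values also without combined replicate 1, AE1-329-alone replicate 3 or vehicle replicate 1, and Mxd4 from -0.123 to 0.0610 (without vehicle replicate 1). The cause was not tested.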
